A study of Mus musculus with 35 samples.

Results

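The 9 genes described here belong to the germ granule machinery and were followed through the Smg6-cKO data set: Tdrd1, Tdrd5, Tdrd6, Tdrd7, Tdrd9 and Tdrkh, which encode Tudor domain proteins, Ddx4 and Ddx25, which encode DEAD-box RNA helicases, and Mael, which encodes the HMG-box protein Maelstrom. They were taken by name, 9 of the 24411 gene rows in each deposited count table of long RNA, and all 9 were measured in every library and passed the filter on low counts in all comparisons. The tables covered pachytene spermatocytes (Spc) and round spermatids (RS), with 3 Smg6-cKO and 3 control libraries each, and chromatoid bodies (CBs), with 3 Smg6-cKO and 4 control libraries. Animals were adult and of a mixed C57Bl/6J and SV129 background. Smg6-cKO mice carried 2 floxed alleles of Smg6 and a Cre transgene, Smg6(fx/fx);Ngn3Cre+, and controls were littermates without Cre, Smg6(fx/fx);Ngn3Cre- or Smg6(fx/wt);Ngn3Cre-. Cre was driven by the Neurogenin 3 promoter, which is active in early spermatogonia, and removed exon 9 of Smg6, the gene of an endonuclease of nonsense-mediated RNA decay (NMD). Spc and RS came from whole testes by sedimentation in a BSA gradient and gave poly(A) RNA libraries, while CBs were pulled down with an antibody against DDX4 from pooled mice and gave total RNA libraries without removal of ribosomal RNA.

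The CB is a perinuclear granule of round spermatids, rich in RNA, PIWI proteins and RNA decay factors, that follows the intermitochondrial cement of spermatocytes. Tudor domains bind methylated arginines of PIWI proteins and thereby hold piRNA factors together, and the DEAD-box helicases remodel RNA and its protein partners. TDRD1, TDRD5, TDRD9 and TDRKH (also called TDRD2) are known for piRNA production or transposon silencing in spermatocytes and earlier cells, and TDRD6, TDRD7, DDX4 and DDX25 as components of the spermatid CB. The roles overlap, since TDRD1 is also a CB protein and Maelstrom acts in piRNA production and is found in the CB.

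Promoter sequences of 8 of the 9 genes were available in RefSeq (GRCm38.p6), with 12 annotated starts in all, and none was at hand for Tdrd6. Each spans 300 bases, 250 before and 50 after the start. Both strands were searched for an E-box (CACGTG), a MYB site (CAACTG), a cAMP response element (TGACGT), an X-box element (GTTGCC) and the shorter MYB core (AACNG, which the MYB site contains). The core was in all 12 promoters and in 80.3% of all 32851 RefSeq promoters of that length. The E-box is shown because, of the 4 longer elements, it was the one found in the most members: 6 of the 12 promoters held it, against 7.15% of all promoters and 10.9% of the 14281 with at least 10 CpG. Those promoters belong to 5 genes, Tdrd1, Tdrd9, Ddx4, Ddx25 and Mael, and 2 of them are overlapping windows of Tdrd1 that hold the same E-box. The element was picked for its frequency in these genes, so the comparison is a description. One promoter of each follows, 5′ to 3′ on the gene's strand, with each E-box in capitals.
Tdrd1, chr19:56825959-56826258, plus strand: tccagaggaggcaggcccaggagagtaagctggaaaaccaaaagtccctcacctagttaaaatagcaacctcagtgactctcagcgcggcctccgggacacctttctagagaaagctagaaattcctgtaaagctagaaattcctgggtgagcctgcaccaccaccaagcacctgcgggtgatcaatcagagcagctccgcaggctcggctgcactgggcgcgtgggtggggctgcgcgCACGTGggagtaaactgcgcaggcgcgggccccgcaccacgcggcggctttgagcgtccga
Tdrd9, chr12:111971309-111971608, plus strand: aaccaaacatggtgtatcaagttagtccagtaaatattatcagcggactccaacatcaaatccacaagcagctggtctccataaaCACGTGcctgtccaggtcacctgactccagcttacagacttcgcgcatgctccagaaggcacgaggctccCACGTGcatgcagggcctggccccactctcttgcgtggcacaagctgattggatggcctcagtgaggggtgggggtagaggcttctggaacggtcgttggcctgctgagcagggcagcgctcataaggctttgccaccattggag
Ddx4, chr13:112652261-112652560, minus strand: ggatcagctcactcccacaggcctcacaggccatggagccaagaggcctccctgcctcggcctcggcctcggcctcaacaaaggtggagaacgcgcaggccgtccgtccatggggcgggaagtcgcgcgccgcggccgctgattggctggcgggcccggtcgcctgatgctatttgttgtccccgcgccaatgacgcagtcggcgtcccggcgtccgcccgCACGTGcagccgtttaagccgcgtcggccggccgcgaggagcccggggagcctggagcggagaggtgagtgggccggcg
Ddx25, chr9:35558421-35558720, minus strand: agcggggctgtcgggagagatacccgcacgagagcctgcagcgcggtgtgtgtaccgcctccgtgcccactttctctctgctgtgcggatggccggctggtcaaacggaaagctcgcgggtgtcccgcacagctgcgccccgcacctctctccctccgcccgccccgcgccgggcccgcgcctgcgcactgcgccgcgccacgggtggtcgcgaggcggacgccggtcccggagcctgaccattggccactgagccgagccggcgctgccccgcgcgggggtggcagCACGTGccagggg
Mael, chr1:166238695-166238994, minus strand: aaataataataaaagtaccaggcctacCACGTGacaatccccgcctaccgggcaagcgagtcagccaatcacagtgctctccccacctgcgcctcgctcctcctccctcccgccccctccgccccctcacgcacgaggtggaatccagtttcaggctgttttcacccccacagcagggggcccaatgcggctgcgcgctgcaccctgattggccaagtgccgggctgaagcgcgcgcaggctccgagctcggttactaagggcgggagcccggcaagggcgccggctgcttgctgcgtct
Counted from the annotated start, the E-box began at -11 in Tdrd1, at -165 and -95 in Tdrd9, at -29 in Ddx4, at 38 in Ddx25 and at -223 in Mael. The MYB site was found in 1 of the 8 genes, Tdrd7, where 2 of its 3 annotated starts held it, and in 13.7% of all promoters. Neither the cAMP response element (7.51% of all promoters) nor the X-box element (12.5%) occurred in the 12 promoters of these genes. The promoters of Tdrd5 and Ddx25 held the most CpG among the members, 48 and 41 against a median of 7 over all promoters. These matches describe letters in a window and say nothing about binding.

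Before any comparison, the libraries were checked. Spc and RS libraries held 36419197 to 47355837 counts on genes and CB libraries 2705277 to 12103906, and in CBs 25.5% to 38.8% of all counts fell on transposable elements, against 3.88% to 5.96% in the cells. Normalized read counts of Smg6 over the whole gene did not pass the test in any genotype comparison (log2 fold change 0.22 in Spc, -0.01 in RS and -0.03 in CBs), and a count over the gene does not check the loss of exon 9. Late spermatid genes summed to 2210 to 2382 CPM (counts scaled to library size) in Smg6-cKO RS and 22768 to 28220 in control RS, and 9 of 9 were lower (median log2 fold change -3.94). The 8 round spermatid genes were lower in Smg6-cKO RS (1276 to 1412 against 3542 to 3595 CPM), and spermatocyte genes summed to 1448 to 1515 against 980 to 1031 CPM. The latter difference depends on the scale: with TMM the sums of spermatocyte genes overlapped between the genotypes (log2 ratio of the means -0.07), with 5 of the 9 genes higher and 3 lower. The median log2 fold change of these 9 genes was 0.77, beside 0.11 for all genes. All 12 macrophage genes were higher in Smg6-cKO RS, at 283 to 467 against 26.1 to 38.4 CPM in all, none of them at 0 in either group. Leydig cell genes (38.2 to 404 against 6.67 to 7.62 CPM), Sertoli cell genes (100.3 to 278 against 44.5 to 59.8 CPM) and spermatogonial genes (100.5 to 159 against 35.9 to 44.7 CPM) also summed to more in Smg6-cKO RS. In Spc, late spermatid genes summed to 472 to 1505 CPM in Smg6-cKO and 4132 to 8078 CPM in control, and round spermatid genes to 604 to 843 and 967 to 1601 CPM. Sertoli cell genes were at 189 to 302 and 351 to 1004 CPM there, whereas Leydig cell genes (659 to 1417 against 137 to 484 CPM) and macrophage genes (59.0 to 91.8 against 40.7 to 50.3 CPM) summed to more in Smg6-cKO Spc. CPM of marker genes and of Oaz3 are scaled by library totals. With TMM, a scaling of these sums added after seeing the data, the other RS lists kept their direction (log2 ratios of -4.15 for late and -2.05 for round spermatid genes, 2.95 for macrophage, 4.08 for Leydig cell, 1.25 for Sertoli cell and 0.92 for spermatogonial genes). The part of these shifts in the results below was not tested, and in RNA of bulk fractions fewer cells of one kind and less RNA per cell cannot be told apart.

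Fold changes also depend on how libraries are scaled. Trimmed mean (TMM) scaling put the median over all genes, as a log2 fold change, at 0.11 for the genotype comparison in RS and at -0.08 for control RS against Spc, and scaling by library totals alone moved these medians to 0.73 and -0.54. Among called genes, those with an adjusted p no higher than 0.05 and a log2 fold change beyond 1.5 either way, the share that was higher went from 56.2% to 82.2% and from 49.9% to 20.6% in these comparisons. It went from 46.3% to 60.6% in Smg6-cKO RS against Spc, from 50.3% to 38.7% in CBs and from 73.9% to 98.1% for the interaction of genotype and cell type. For the 9 genes TMM values are given, together with each gene's distance from the median of all genes where the scaling matters.

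Levels of the 9 genes were first ordered in control cells, per kilobase of the longest RefSeq transcript so that genes could be compared. Mael was the highest in control Spc at 773 ± 51.8 CPM per kilobase (mean ± SD, n = 3), followed by Ddx25 (377 ± 20.3), Ddx4 (262 ± 15.2), Tdrd6 (182 ± 10.5) and Tdrd7 (109 ± 6.59). Tdrd1 (74.5 ± 9.04), Tdrd5 (59.1 ± 8.80) and Tdrd9 (48.3 ± 2.52) had ranges that overlapped with their neighbours in this order, and Tdrkh was the lowest at 12.8 ± 1.72. With the same RefSeq lengths, the order of the 5 highest was the same in control RS, where Mael reached 1073 ± 47.9, Ddx25 489 ± 17.4, Ddx4 321 ± 11.3, Tdrd6 205 ± 5.86 and Tdrd7 166 ± 9.58 CPM per kilobase, without overlap between neighbours. At the other end Tdrd9 stood at 30.5 ± 0.667, Tdrd1 at 11.7 ± 1.77, and Tdrkh (6.05 ± 0.530) and Tdrd5 (5.91 ± 1.15) overlapped. The place of Ddx25 depends on the transcript length, which is 1675 bases in RefSeq and 6934 in GENCODE. With the longest GENCODE transcripts, a setting chosen after seeing the data, Ddx25 came to 91.1 ± 4.91 in control Spc and 118 ± 4.21 in control RS, below Ddx4, Tdrd6 and Tdrd7, and Tdrkh fell below Tdrd5 in RS (4.12 ± 0.361 and 5.41 ± 1.05).

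**Figure D1:**
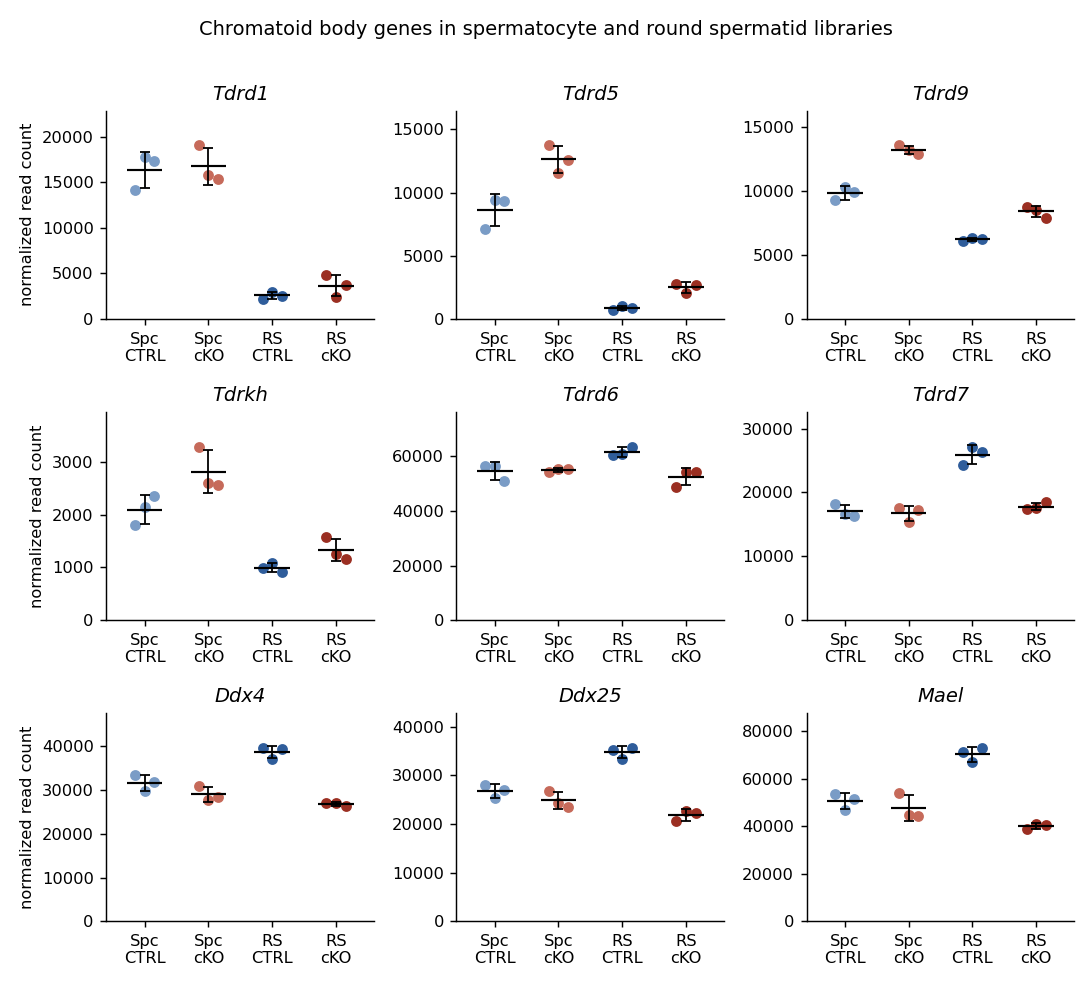
Normalized read counts (vertical axis, linear from 0, TMM over all 12 libraries) of the 9 genes in Spc and RS of control (CTRL) and Smg6-cKO mice. Points are libraries, horizontal lines means and bars SD (n = 3). Tdrd1, Tdrd5, Tdrd9 and Tdrkh lie lower in RS than in Spc, most so Tdrd5 and Tdrd1. On this scale Mael, Ddx25, Ddx4, Tdrd7 and Tdrd6 stand highest in control RS.

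In control mice, Tdrd1, Tdrd5, Tdrd9 and Tdrkh fell from Spc to RS, and Tdrd7, Mael and Ddx25 rose. In all, 7 of the 9 genes passed the threshold, an adjusted p no higher than 0.05 by edgeR. So did 75.9% of the 17046 genes tested, 36.2% as higher and 39.7% as lower, and the members' count of 3 higher and 4 lower is near that background. Normalized read counts of Tdrd5 were 8325 ± 1159 in control Spc and 761 ± 157 in control RS, 10.9-fold lower (log2 fold change -3.45, SE 0.18, adjusted p = 3.1e-05). Those of Tdrd1 were 15820 ± 1764 and 2273 ± 373, 6.96-fold lower (-2.80, SE 0.15, adjusted p = 3.1e-05). These were the 2 members past the fold threshold of 1.5, as were 34.0% of all genes. Tdrkh, which tethers piRNA trimming to mitochondria, fell by 1.21 on the log2 scale (SE 0.13, adjusted p = 0.00021), and the Tudor helicase gene Tdrd9 fell by 0.79 (SE 0.07, adjusted p = 0.00013).

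The other 5 genes had positive values with TMM scaling, and 4 of them turned negative with library totals. Tdrd7, a Tudor protein needed to reshape the CB in spermatids, rose from 16477 ± 1180 to 22857 ± 1532 (log2 fold change 0.47, SE 0.09, adjusted p = 0.0020), and Mael rose from 48955 ± 3690 to 61953 ± 1969 (0.34, SE 0.08, adjusted p = 0.0065). Ddx25, also known as gonadotropin-regulated testicular helicase, rose by 0.24 (SE 0.07, adjusted p = 0.021), a result that did not pass when any of 4 libraries was left out (adjusted p = 0.054 to 0.11). For Ddx4, the mouse homologue of Vasa, the difference was 0.16 (SE 0.08, adjusted p = 0.092), and for Tdrd6, the scaffold of the CB, it was 0.04 (SE 0.08, adjusted p = 0.66). With library totals as the scale Ddx25, Mael, Ddx4 and Tdrd6 turned to -0.21, -0.12, -0.30 and -0.42 and Tdrd7 to 0.02. The 5 genes stayed above the median of all genes by 0.12 to 0.55, which holds by construction, since a scaling shifts all genes nearly alike. Libraries of Spc and RS did not overlap for 8 of the 9 genes, as for 80.6% of all genes, and Tdrd6 was the exception.

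In Smg6-cKO mice Tdrd1, Tdrd5, Tdrd9 and Tdrkh also fell from Spc to RS, and with TMM scaling none of the 9 genes passed as higher in RS. Here 6 of 9 genes passed, all lower in RS, while 45.4% of the 17709 genes tested passed, 18.9% as higher and 26.4% as lower. Libraries of the cell types did not overlap for 7 of the 9 genes (58.7% of all genes). Tdrd5 and Tdrd1 were past the fold threshold, as were 7.06% of all genes. Tdrd5 went from 13610 ± 1038 to 2639 ± 388, 5.16-fold lower (log2 fold change -2.37, SE 0.12, adjusted p = 0.00011), and Tdrd1 from 18038 ± 1767 to 3867 ± 1172, 4.66-fold lower (-2.22, SE 0.21, adjusted p = 0.00032). Tdrkh fell by 1.10 (SE 0.14, adjusted p = 0.00089) and Tdrd9 by 0.68 (SE 0.06, adjusted p = 0.00031). Mael fell by 0.28 (SE 0.08, adjusted p = 0.025) and Ddx25 by 0.21 (SE 0.07, adjusted p = 0.046), but with DESeq2 in place of edgeR these had adjusted p = 0.11 and 0.22. Without Smg6-cKO RS library 1 the values were -0.17 for Mael (adjusted p = 0.16) and -0.08 for Ddx25 (adjusted p = 0.34), and without Smg6-cKO Spc library 1 they were -0.13 (adjusted p = 0.14) and -0.11 (adjusted p = 0.31). Over all fits with 1 library left out, 9 member values of this comparison lost their pass. Without a count filter 2 members did so, and with summed transcript counts also 2. Ddx4 (-0.14, adjusted p = 0.098), Tdrd6 (-0.09, adjusted p = 0.30) and Tdrd7 (0.06, adjusted p = 0.49) did not pass. With library totals as the scale, 2 members no longer passed and 1 further member did. The median of all genes moved from 0.01 to 0.16 there, so small differences between the stages depend on the scaling in both genotypes.

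In Spc, the genotypes differed little. Tdrd5 and Tdrd9 were higher in Smg6-cKO and Ddx4 was lower, so that 3 of 9 genes passed, against 28.2% of the 17321 genes tested (14.0% as higher and 14.1% as lower). None reached the fold threshold, which 8.52% of all genes did. Normalized read counts of Tdrd9 were 10538, 11407 and 11014 in control and 13708, 13909 and 13502 in Smg6-cKO Spc (log2 fold change 0.32, SE 0.06, adjusted p = 0.012). All 3 Smg6-cKO values lay above all control values, and the spread within Smg6-cKO was small. For Tdrd5, a factor of pachytene piRNA production, counts were 8103, 10448 and 10298 in control and 13867, 12148 and 13133 in Smg6-cKO, again without overlap (0.44, SE 0.11, adjusted p = 0.028). Ddx4 counts were 37894, 32932 and 35222 in control and 31270, 29145 and 29608 in Smg6-cKO (-0.24, SE 0.07, adjusted p = 0.046). Without control library 3, no member passed (adjusted p = 0.059 for Tdrd5, 0.051 for Tdrd9 and 0.11 for Ddx4), and without Smg6-cKO library 1 or 3 only Tdrd9 did. Ddx4 also did not pass without control library 1 (adjusted p = 0.13) or Smg6-cKO library 2 (adjusted p = 0.16), with DESeq2 (adjusted p = 0.082), without a count filter (adjusted p = 0.056) or with summed transcript counts (adjusted p = 0.066). Tdrd5 did not pass with the library number as a replicate block (adjusted p = 0.055).

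The other members in Spc gave log2 fold changes of 0.32 for Tdrkh (adjusted p = 0.11), -0.22 for Ddx25 (adjusted p = 0.065), -0.20 for Mael (adjusted p = 0.14), -0.14 for Tdrd7 (adjusted p = 0.23), -0.10 for Tdrd6 (adjusted p = 0.31) and -0.08 for Tdrd1 (adjusted p = 0.61). Values did not overlap between the genotypes for 6 of the 9 genes (47.7% of all genes). Those were Tdrd5, Tdrd7, Tdrd9, Tdrkh, Ddx4 and Ddx25. The median of the 9 genes was -0.10, beside -0.01 for all genes.

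RS showed the clearest difference between the genotypes. Tdrd5, Tdrd9 and Tdrkh were higher in Smg6-cKO RS, and Mael, Ddx25, Ddx4, Tdrd7 and Tdrd6 were lower. That makes 8 of 9 genes past the test, and in this comparison 72.7% of the 17492 genes tested passed, 38.4% as higher and 34.3% as lower. The genotypes did not overlap for 8 of the 9 genes (76.9% of all genes), all but Tdrd1. The median of the 9 was -0.22 and that of all genes 0.11.

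Tdrd5 changed most. Its normalized read counts were 651, 958 and 770 in control RS and 2539, 1875 and 2519 in Smg6-cKO RS, 2.91-fold higher (log2 fold change 1.54, SE 0.17, adjusted p = 9.7e-05). The lowest Smg6-cKO library was well above the highest control library, and Tdrd5 was the only member past the fold threshold, as were 26.4% of all genes. With any 1 library dropped it lay between 1.41 and 1.72. It was under the fold threshold without control library 1 (1.41) and with DESeq2 (1.47), and passed the test in both. Spermatocyte genes had a median of 0.77 in this comparison (all genes 0.11). Their sums overlapped between the genotypes with TMM but not with library totals. The part of the marker shifts in the Tdrd5 result was not tested. Tdrd9 had counts of 5572, 5824 and 5764 in control and 8118, 7927 and 7365 in Smg6-cKO RS (0.45, SE 0.06, adjusted p = 0.00037), without overlap. Tdrkh had 914, 995 and 834 in control and 1458, 1170 and 1085 in Smg6-cKO (0.44, SE 0.14, adjusted p = 0.019), and it did not pass without control library 1 (adjusted p = 0.054) or 3 (adjusted p = 0.074).

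Tdrd1, the fourth gene that was low in control RS, had 2033, 2751 and 2321 counts in control and 4423, 2271 and 3485 in Smg6-cKO RS. Smg6-cKO library 2 lay within the control range, and the difference did not pass (log2 fold change 0.52, SE 0.22, adjusted p = 0.066). Without that library it was 0.78 (adjusted p = 0.0015), and it also passed with library totals (1.14, adjusted p = 0.0024) and with summed transcript counts (0.59, adjusted p = 0.048). In all other fits it did not pass, among them without Smg6-cKO library 1 (0.35, adjusted p = 0.18) and with the replicate block (0.48, adjusted p = 0.14).

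Mael had the largest decrease among the 9 genes. It had 65373, 61511 and 67060 counts in control RS and 35879, 37864 and 37567 in Smg6-cKO RS, 1.74-fold lower (log2 fold change -0.80, SE 0.06, adjusted p = 9.5e-06). Ddx25 had 32307, 30668 and 32795 in control and 19073, 21110 and 20638 in Smg6-cKO (-0.66, SE 0.06, adjusted p = 4.1e-05). Ddx4 had 36413, 34244 and 36310 in control and 25116, 25111 and 24474 in Smg6-cKO (-0.52, SE 0.05, adjusted p = 7.0e-05). In each of these genes the replicates stood close together and the genotypes far apart. Tdrd7 had 22279, 25002 and 24224 in control and 16142, 16202 and 17111 in Smg6-cKO RS (-0.53, SE 0.06, adjusted p = 0.00015). Tdrd6 differed least, with 55392, 55814 and 58406 in control and 45300, 50235 and 50426 in Smg6-cKO (-0.22, SE 0.06, adjusted p = 0.015), and it did not pass when any of the 3 Smg6-cKO libraries was left out (adjusted p = 0.059 to 0.14), with a value of -0.099 without library 1, or with summed transcript counts (-0.15, adjusted p = 0.081).

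These decreases hold relative to the other genes of the library. Scaled by library totals, the log2 fold change in RS was -0.18 for Mael, -0.04 for Ddx25, 0.10 for Ddx4, 0.09 for Tdrd7 and 0.40 for Tdrd6, so that the last 3 turned to the opposite sign, and that of Tdrd5 was 2.16. Distances from the median of all genes hardly depend on the scaling by construction, since it shifts all genes nearly alike. With TMM they were -0.91 for Mael, -0.76 for Ddx25, -0.64 for Tdrd7, -0.63 for Ddx4 and -0.33 for Tdrd6, and 1.43 for Tdrd5. A ratio of 2 genes within a library does not depend on scaling at all. Reads of Tdrd5 came to 0.996%, 1.56% and 1.15% of those of Mael in control RS and to 7.08%, 4.95% and 6.71% in Smg6-cKO RS. In Spc the same ratio was 13.3%, 20.1% and 18.1% in control and 25.4%, 25.9% and 28.3% in Smg6-cKO. The genes of this ratio were chosen as the members with the largest increase and the largest decrease in RS, which fixes its direction there.

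**Figure D2:**
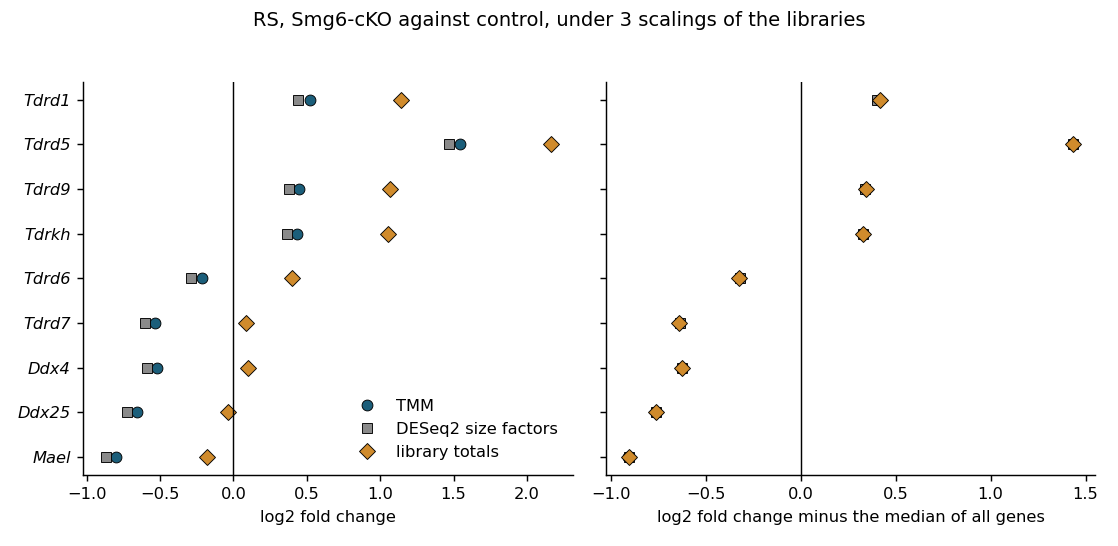
Log2 fold changes of the 9 genes in RS, Smg6-cKO against control, with 3 scalings of the libraries (left), and the same values minus the median of all genes tested (right). Library totals shift every gene to the right and turn Tdrd6, Tdrd7 and Ddx4 to positive values. Distances from the median nearly coincide by construction, since a scaling shifts all genes nearly alike.

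The difference between the genotype effects in the 2 cell types was tested as an interaction over all 12 libraries. It passed for 6 of the 9 genes, where 43.1% of the 18171 genes tested passed, 24.1% with a more negative effect in RS. Mael (log2 -0.73, SE 0.12, adjusted p = 0.0010), Ddx25 (-0.56, SE 0.10, adjusted p = 0.0017), Tdrd7 (-0.52, SE 0.10, adjusted p = 0.0030), Ddx4 (-0.40, SE 0.09, adjusted p = 0.0049) and Tdrd6 (-0.24, SE 0.09, adjusted p = 0.043) had a more negative effect in RS than in Spc, beside a median of -0.13 for all genes. Tdrd5 had a more positive effect in RS (0.98, SE 0.23, adjusted p = 0.0063). For Tdrd9 the interaction was 0.01 (SE 0.09, adjusted p = 0.95) and for Tdrkh -0.00 (SE 0.21, adjusted p = 0.99), and for Tdrd1 it was 0.48 (SE 0.29, adjusted p = 0.20). With library totals the interaction of Ddx25, Tdrd7, Ddx4 and Tdrd6 became positive (0.15, 0.19, 0.30 and 0.47) and that of Mael -0.02, and the median of all genes moved to 0.58. Tdrd6 did not pass without the libraries of any 1 number (-0.29 to -0.15, adjusted p = 0.078 to 0.42), with the replicate block (adjusted p = 0.070), with DESeq2 (-0.17, adjusted p = 0.20), without a count filter (adjusted p = 0.11) or with summed transcript counts (adjusted p = 0.16). Without the libraries numbered 3, 2 genes passed, Mael and Ddx25.

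**Figure D3:**
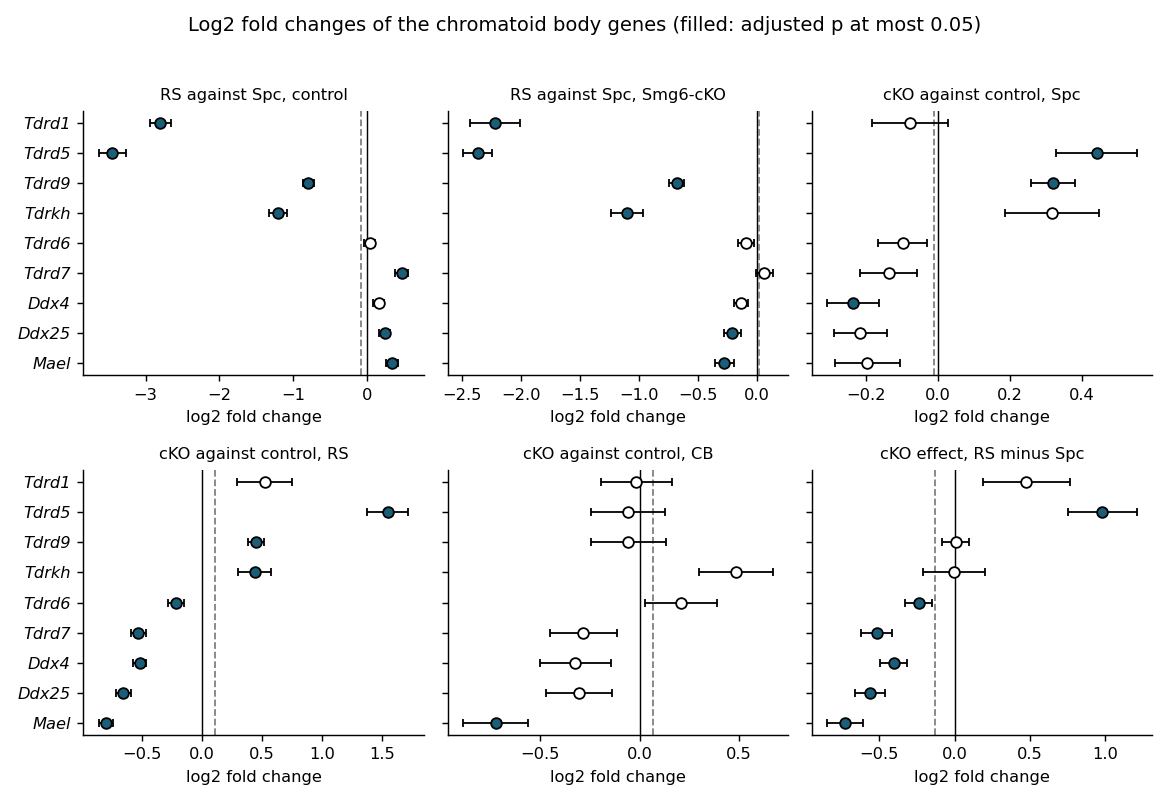
Log2 fold changes with SE of the 9 genes in the 6 comparisons (TMM scaling). Filled points passed edgeR's quasi-likelihood test (adjusted p no higher than 0.05), and the dashed line is the median of all genes tested. Tdrd5 is highest in Smg6-cKO RS (1.54) and Mael is lowest there (-0.80) and in CBs (-0.72); with library totals Tdrd6, Tdrd7 and Ddx4 turn to the other sign in RS.

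The stage and genotype comparisons share libraries, so their values are only set side by side. Genes that were lower in control RS than in Spc had log2 fold changes between genotypes in RS of 1.54 (Tdrd5, -3.45 between stages), 0.52 (Tdrd1, -2.80), 0.44 (Tdrkh, -1.21) and 0.45 (Tdrd9, -0.79). Genes with a positive value between stages had -0.53 (Tdrd7, 0.47), -0.80 (Mael, 0.34), -0.66 (Ddx25, 0.24), -0.52 (Ddx4, 0.16) and -0.22 (Tdrd6, 0.04). Over the 12 libraries of Spc and RS, log2 CPM of the first 4 genes correlated with each other at Pearson's r of 0.871 to 0.963, and those of the other 5 at 0.773 to 0.994, with Mael and Ddx25 the closest pair (0.994). Between the sets r ran from -0.845 to -0.309. The 12 libraries form 4 groups and share cell type and genotype, so these values describe the groups and have no test.

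By the same measure the non-member genes most like Mael were Psmc3, a proteasome subunit (r = 0.994), Rps20 and Gng5 (both 0.993), and those most like Ddx25 were Pdcd5 (0.996), Eid3 (0.995) and Meig1 (0.994), a gene of spermatid differentiation. Ddx4 was closest to Gtf2a2 (0.995), Tdrd7 to Sf3b4 (0.987), Tdrd5 to Myd88 (0.998), Tdrd1 to 4931408D14Rik (0.998), Tdrd9 to Tonsl (0.994) and Tdrkh to Dnah7b (0.991). Tdrd6 had no close match above 0.918 (Faap100).

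Transcripts were read from a separate table in which a read that matched several transcripts was shared among them, so near-identical isoforms carry nearly the same value. In RS, 25 of 36 member transcripts tested passed, 15 as higher and 10 as lower, where 74.9% of all 57133 transcripts passed. All 5 Tdrd5 transcripts were higher in Smg6-cKO RS, by 1.28 to 1.69 on the log2 scale, and both Mael transcripts were lower (-0.72 each). Tdrd9 has 2 transcripts annotated as NMD targets, ENSMUST00000191808 (0.50, adjusted p = 0.00024) and ENSMUST00000192125 (0.49, adjusted p = 0.000305), whose changes in RS were close to that of the coding transcript ENSMUST00000079009 (0.57, adjusted p = 0.000108). The annotated NMD target of Tdrkh, ENSMUST00000197876, had 0.25 (adjusted p = 0.26), and the longest coding transcript ENSMUST00000166032 had 0.87 (adjusted p = 0.00076). The other coding transcripts of Tdrkh ranged from 0.20 (ENSMUST00000200486, adjusted p = 0.27) to 0.59 (ENSMUST00000197495, adjusted p = 0.0066). Tdrkh lies on the plus strand of chromosome 3 (94413273 to 94434668, GRCm38) and overlaps Oaz3, a late spermatid gene on the other strand. Oaz3 was at 2198 to 2603 CPM in control and 234 to 264 CPM in Smg6-cKO RS, while counting in the deposited tables used the strand. Tdrd7 coding transcripts fell by 0.45, and its processed transcript ENSMUST00000151422 had 0.05 (adjusted p = 0.71). In Spc, 8 of 36 member transcripts passed (28.6% of all 57631), 5 of Tdrd9 and 3 of Tdrd5, all of them higher in Smg6-cKO.

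In isolated CBs, Mael RNA was lower in Smg6-cKO and no other member passed. The share of all 14051 genes tested that passed was 36.6% (18.1% as higher and 18.4% as lower), against 1 of the 9 genes, and no member was past the fold threshold (11.3% of all genes). Normalized read counts of Mael were 929, 894, 938 and 1186 in control CBs and 569, 598 and 624 in Smg6-cKO CBs, 1.65-fold lower (log2 fold change -0.72, SE 0.16, adjusted p = 0.0044). The 3 Smg6-cKO values were close together and below every control value, and control library 4 stood above the other controls. Control libraries 2 and 3 carry another name stem in the table than 1 and 4, of unstated meaning, and the Mael values of both pairs lay above those of Smg6-cKO. The decrease lay between -0.77 and -0.62 with any 1 library dropped, with adjusted p = 0.0073 to 0.015, and was -0.88 with library totals. Both Mael transcripts were lower as well, ENSMUST00000194057 by 0.62 and ENSMUST00000038782 by 0.59 (adjusted p = 0.019 and 0.020).

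Markers also moved in CBs. Late spermatid genes summed to 400.3 to 635 CPM in Smg6-cKO and 2672 to 5742 CPM in control CBs, with 9 of 9 lower, and round spermatid genes to 158 to 243 and 550 to 813 CPM, with 7 of 8 lower. Leydig cell genes (53.1 to 433 against 19.1 to 56.5 CPM), spermatogonial genes (64.2 to 117 against 36.6 to 44.4 CPM) and macrophage genes (19.1 to 85.8 against 15.0 to 19.3 CPM) reached higher sums in Smg6-cKO CBs. Spermatocyte genes summed to 648 to 1096 against 761 to 1264 CPM, and Sertoli cell genes to 38.1 to 88.6 against 31.5 to 34.5 CPM, with Fshr at 0 in Smg6-cKO. The part of these shifts in the Mael result was not tested.

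**Figure D4:**
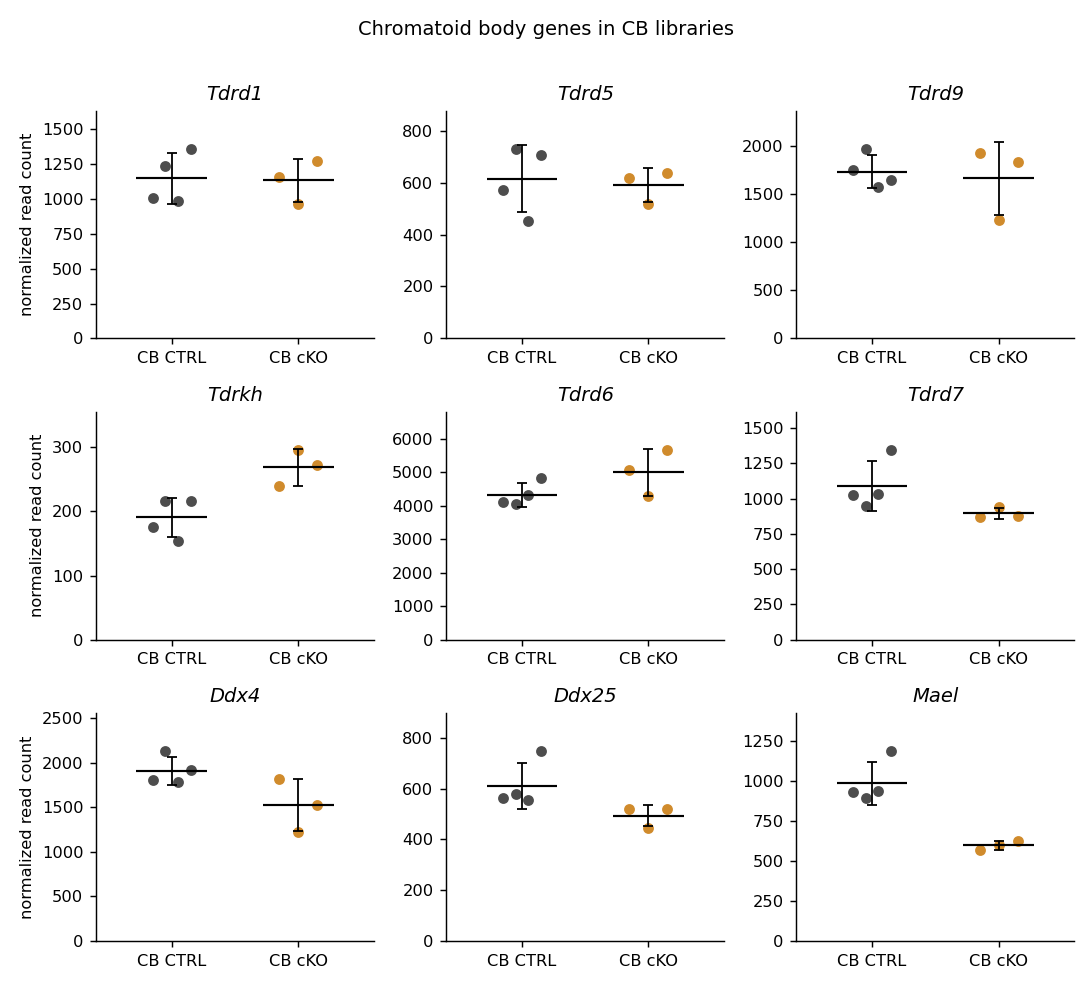
Normalized read counts (vertical axis, linear from 0, TMM over the 7 CB libraries) of the 9 genes in CBs of control (n = 4) and Smg6-cKO (n = 3) mice. Points are libraries, lines means and bars SD. Mael is the gene with the widest gap between the groups, 894 to 1186 in control and 569 to 624 in Smg6-cKO.

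Tdrkh was the member with the next smallest p in CBs, with 176, 216, 154 and 217 counts in control and 239, 296 and 272 in Smg6-cKO. The groups did not overlap, but the difference did not pass (log2 fold change 0.48, SE 0.18, adjusted p = 0.055), and it was 0.11 (adjusted p = 0.62) when transcript counts were summed. The short coding transcripts ENSMUST00000196386 (0.71, adjusted p = 0.032) and ENSMUST00000200486 (0.68, adjusted p = 0.039) and ENSMUST00000045245 (0.56, adjusted p = 0.046) were higher in Smg6-cKO CBs. The longest one, ENSMUST00000166032, which reaches over Oaz3, had -0.30 (adjusted p = 0.24), with Oaz3 at 171 to 391 CPM in control and 19.2 to 34.9 CPM in Smg6-cKO CBs. In all, 6 of the 35 member transcripts tested in CBs passed (35.9% of all 30623). Among them was a processed transcript of Tdrd7, ENSMUST00000140270, which was lower (-0.83, adjusted p = 0.00995), while the coding transcripts of Tdrd7 had -0.48 (ENSMUST00000107777, adjusted p = 0.081) and 0.16 (ENSMUST00000102929, adjusted p = 0.54).

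Ddx4, whose protein was the bait of the isolation, had 1800, 2127, 1785 and 1917 counts in control and 1810, 1225 and 1527 in Smg6-cKO CBs (log2 fold change -0.32, SE 0.18, adjusted p = 0.17). One Smg6-cKO library lay within the control range. Ddx25 had -0.31 (SE 0.17, adjusted p = 0.17), Tdrd7 -0.28 (SE 0.17, adjusted p = 0.21) and Tdrd6 0.21 (SE 0.18, adjusted p = 0.39). Tdrd1 (-0.02, SE 0.18), Tdrd5 (-0.06, SE 0.19) and Tdrd9 (-0.06, SE 0.19) had adjusted p = 0.83 to 0.95. Groups of CB libraries did not overlap for 4 of the 9 genes, Tdrkh, Tdrd7, Ddx25 and Mael, against 39.7% of all genes.

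Within the CB libraries the 9 genes had another order than in the cells. Per kilobase, Ddx4 (109 ± 9.08 CPM), Mael (104 ± 14.2) and Tdrd6 (100.3 ± 8.24) were the highest in control CBs and overlapped (n = 4), and in Smg6-cKO CBs Tdrd6 was at 116 ± 16.2, Ddx4 at 87.3 ± 16.8 and Mael at 63.1 ± 2.91 (n = 3). As a share of the summed reads of the 9 genes, Mael made up 29.1% ± 0.716 in control RS and 7.80% ± 0.616 in control CBs. Tdrd9 made up 2.57% ± 0.0879 and 13.8% ± 1.62, Tdrd1 1.07% ± 0.177 and 9.06% ± 0.770, and Tdrd5 0.357% ± 0.0746 and 4.85% ± 0.782. In control Spc the shares of Tdrd1 (7.54% ± 1.04) and Tdrd5 (3.97% ± 0.658) were close to those in CBs, and Tdrd9 stood at 4.53% ± 0.319. RNA type, fragmentation and sequencing differed between CB and cell libraries, so library preparation and compartment cannot be told apart here and the shares were not tested.

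**Figure D5:**
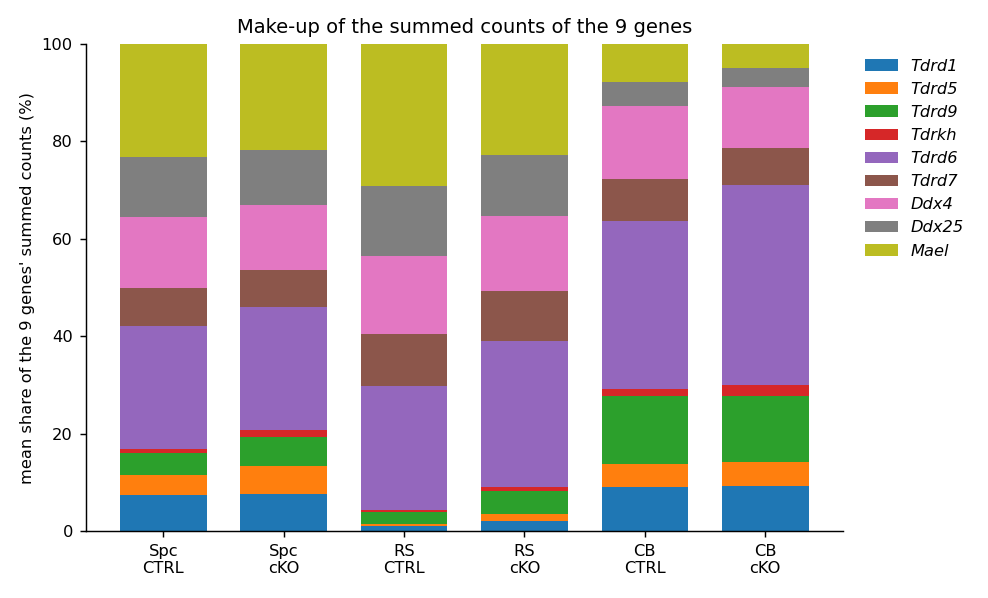
Make-up of the reads of the 9 genes: mean share of each gene (vertical axis, percent of the summed counts of the 9 genes) in the 6 groups of libraries (n = 3, and 4 for control CBs). Mael takes 29.1% in control RS and 22.9% in Smg6-cKO RS, against 7.80% and 4.96% in CBs. Tdrd6 is the largest part in CBs (34.4% and 41.1%), as in Spc (25.1% and 25.2%) and Smg6-cKO RS (30%).

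Other genes of the pathway were counted by list, and the shares of all genes that passed, given above for each comparison, are the background for these counts (in control RS against Spc 75.9%, 39.7% as lower, and between genotypes in RS 72.7%, 38.4% as higher and 34.3% as lower). Among 12 genes of PIWI proteins and piRNA processing, 10 fell and 1 rose from Spc to RS in control mice (median log2 fold change -1.55, all genes -0.08), among them Piwil1, the PIWI protein of pachytene piRNAs (-3.33, adjusted p = 3.3e-05), and Pld6, an endonuclease of piRNA production (-2.37, adjusted p = 2.7e-05). In the genotype comparison in RS, 8 of these 12 were higher in Smg6-cKO and 1 was lower (median 0.57, all genes 0.11). The trimmer gene Pnldc1 had 1.70 (adjusted p = 0.00019), the helicase gene Mov10l1 0.95 (adjusted p = 0.0016), and Gtsf1, a cofactor of PIWI cleavage, was the lower one (-1.38, adjusted p = 3.2e-06). In Spc 4 of 12 were higher and none lower (median 0.17), and in CBs 1 of 11 passed, which was Gtsf1 again (-1.23, adjusted p = 0.00036).

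Of 7 further Tudor genes tested, 3 were higher and 3 lower in Smg6-cKO RS (median -0.15). Akap1, which anchors protein kinase A to mitochondria, had -2.94 (adjusted p = 2.9e-07) and Rnf17, also called Tdrd4, -0.67 (adjusted p = 3.9e-05), while Snd1 had 0.99 (adjusted p = 0.00047) and Stk31 0.71 (adjusted p = 0.0011). In CBs 1 was higher and 3 were lower, Akap1 among the latter (-1.75, adjusted p = 7.4e-05). All 7 further helicase genes passed in RS, 4 as higher and 3 as lower, with Ddx3x at 1.99 (adjusted p = 7.7e-05) and D1Pas1, its testis copy, at -1.09 (adjusted p = 6.9e-06). Since the sequences of Ddx3x and D1Pas1 are alike, reads may be split between them. Among 10 further CB partners, 4 were higher and 4 lower in RS (median -0.00), with Upf1, the central NMD helicase, at 2.12 (adjusted p = 1.1e-06) and Kif17, a motor protein of the CB, at -2.12 (adjusted p = 4.5e-06). In CBs Upf1 had 1.07 (adjusted p = 0.00035) and Kif17 -1.32 (adjusted p = 0.00048), 2 of 10 higher and 1 lower. Of 4 genes of transcription factors active at these stages, Mybl1 was higher (0.67, adjusted p = 8.7e-05), Crem (-1.12, adjusted p = 2.2e-06) and Rfx2 (-0.64, adjusted p = 5.8e-05) were lower in Smg6-cKO RS, and Tcfl5 had -0.11 (adjusted p = 0.11).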

How the data were processed

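Long RNA of 19 of the 35 libraries was used, and the 16 small RNA libraries were not used here. Per the labels and the methods, the authors used cutadapt (2.8 in the submitters' notes) for trimming and STAR (2.7.1a there) for alignment against GRCm38, and counted genes by strand with TEtranscripts. The deposited gene tables hold raw counts under UCSC symbols. The deposited transcript tables hold expected counts, made by the authors with featureCounts 2.0.1, by strand, with a read shared among overlapping transcripts. These were rounded to whole numbers here. Columns of CB tables give the genotype, but their numbers are not those of the labelled samples, so CB libraries are numbered in column order.

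Rows of elements (1146) were left out. Genes needed 10 counts in at least 3 libraries and transcripts 20. Each comparison was fitted on its own libraries in R 4.3.3 by the quasi-likelihood test of edgeR 4.0.16 with TMM factors. P-values are two-sided and adjusted over all genes after Benjamini and Hochberg. Passing meant an adjusted p no higher than 0.05, and a call also a log2 fold change beyond 1.5 either way. Normalized read counts are counts over the TMM-scaled library size, relative to the mean of the fit, so their scale differs between comparisons. The series text gives 1 mouse per cell sample and the methods several testes, and Spc and RS of one number may share an animal, which the labels do not state. P-values between Spc and RS and for the interaction treat all libraries as independent. Replicates of a group differed by more than counting noise (chi-square per degree of freedom 9.89 to 82.3). In simulated counts of the RS comparison (17315 genes), 83% of genes changed by 2 on the log2 scale and 47% of those changed by 1 passed, and in CBs (13825 genes) 86% and 34%. Only 100 genes were changed at each size, drawn from genes of all levels, whereas 72.7% of all genes passed in RS. These shares therefore do not give the power for the 9 genes. Coordinates are from GENCODE vM21 (GRCm38), where 98.0% of transcripts were matched, and promoters from RefSeq.

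Members and lists were chosen with earlier results of these data known. All 9 members are named, and other genes only from lists of Tudor, piRNA, helicase, CB partner, regulator and cell type marker genes, plus the 3 closest to each member in log2 CPM. Alternatives were DESeq2 1.42.0, library totals, no count filter, summed transcript counts, a replicate block and each library left out.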

Additional observations from a re-analysis of the deposited data

Results flagged for a closer look

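In 6 of the 9 genes the genotype effect differed between RS and Spc by the interaction test, which 43.1% of all genes passed (24.1% with a more negative effect in RS). On the log2 scale the effect in RS minus that in Spc was 0.98 for Tdrd5, -0.24 for Tdrd6, -0.52 for Tdrd7, -0.40 for Ddx4, -0.56 for Ddx25 and -0.73 for Mael. Tdrd6 did not pass in any fit that left out the libraries of 1 number (adjusted p = 0.078 to 0.42) or with the replicate block (adjusted p = 0.070), and 2 to 5 genes passed in those that left out a number. All but Tdrd5 and Mael changed sign with library totals as the scale.

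In control CBs, where 4 libraries allowed a check for a library far from the others, library 4 was high for Ddx25 and Mael. Its gap to the next library made up 0.88 of the whole range for Ddx25 and 0.85 for Mael, over Dixon's limit for 4 values. Chance gives such a gap in about 1 of 20 groups, and 9 were checked. Mael was lower in Smg6-cKO CBs with or without that library. Ddx25 passed in neither case, and its log2 fold change went from -0.31 to -0.19 (adjusted p = 0.40) without it.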

How the results depend on the processing

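With each library left out in turn, or for the interaction the 4 libraries of one number, the number of members past the test lay between 0 and 3 in Spc (3 with all), between 2 and 5 for the interaction (6), between 7 and 8 in RS (8), between 6 and 8 in control RS against Spc (7) and between 4 and 6 in Smg6-cKO RS against Spc (6), and stayed at 1 in CBs. Counts over all genes then lay between 2042 and 4234 in Spc (4879 with all), 2672 and 5811 for the interaction (7834), 11018 and 12347 in RS, 11319 and 12908 in control and 5537 and 7754 in Smg6-cKO RS against Spc, and 3863 and 5243 in CBs. Member transcripts past the test numbered 4 with the replicate block in Spc (8 without), as the share over all transcripts went from 28.6% to 21.3%, and 2 with library totals in CBs (6 with TMM), as it went from 35.9% to 20.2%.

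With library totals 12 values changed sign among those that passed with TMM, with library totals or with both. In RS these were Tdrd6 (0.40), Tdrd7 (0.086) and Ddx4 (0.10). In control RS against Spc they were Tdrd6 (-0.42), Ddx4 (-0.30), Ddx25 (-0.21) and Mael (-0.12). For the interaction they were Tdrd6 (0.47), Tdrd7 (0.19), Tdrkh (0.71), Ddx4 (0.30) and Ddx25 (0.15). Sign changes of values that passed with neither scaling are not counted. By construction this setting shifts all genes together. DESeq2 left 49 of 54 single values on their side of the threshold.

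Libraries of one number did not deviate together in every pair (r from -0.103 to 0.269 in Spc, -0.153 to 0.105 in RS, -0.191 to -0.154 in control and -0.00703 to 0.565 in Smg6-cKO RS against Spc), so the numbers were not used as pairs. A shared animal was not tested. With the number as a replicate block, 3 of 45 values no longer passed, Tdrd5 in Spc (0.45, adjusted p = 0.055), Ddx25 in Smg6-cKO RS against Spc (-0.21, adjusted p = 0.079) and Tdrd6 in the interaction (-0.24, adjusted p = 0.070). No paired analysis was possible for CBs because the numbers in the column names are not those of the labelled samples. Small changes of members are near the limit of what 3 libraries per group can show.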
